A study of Mus musculus with 6 samples.

Results

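The genes described here were 38 genes of the extracellular matrix and of the fibroblasts that secrete it, 26 collagen chains and 12 fibroblast and matrix genes, given by a list of names and grouped as fibrillar collagens, basement membrane collagens, other collagens, and fibroblast and matrix genes. Each gene was read from 1 probe set, taken among those paired with exactly 1 gene symbol as the one of highest average over the arrays, and 37 of the 38 genes had such a probe set, of 19938 genes and 35557 probe sets measured in all. Fbn1 had none with a single symbol and was not analysed here. Total RNA of 6 mouse mammary tumors, 1 Affymetrix Mouse Gene 1.0 ST array each, was compared between 3 tumors that lack the junctional adhesion molecule JAM-A (5333, 5346 and 5347) and 3 that have it (5369, 5370 and 5393). JAM-A is a transmembrane protein of epithelial and endothelial tight junctions and of some blood cells, and the comparison asked how the transcripts of early tumors differ in its absence.

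All 6 tumors carried MMTV-PyMT (also written MMTV-PyVmT), a transgene in which the mouse mammary tumor virus promoter drives the polyoma middle T oncoprotein in mammary epithelium. The JamA- tumors had the genotype MMTV-PyMT JAM-A KO, called JAM-A-/- below, and the JamA+ tumors were MMTV-PyMT JAM-A+/+. The KO tumors came from crosses with JAM-A null mice, so that JAM-A was missing from stroma and vessels as well as from tumor cells, and the study took JAM-A+/+ littermates as controls without tying litters to arrays. Tumors were resected at an early stage, with no age or treatment in the labels, and the labels do not say that each tumor came from a separate mouse, so p-values measure the spread between these tumors. The tissue label of tumor 5347 does not mention the loss of JAM-A, which its title and genotype give.

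Collagens are trimers of chains that are hydroxylated and folded in the endoplasmic reticulum, secreted, and assembled outside the cell. Fibrillar collagens form the tension-bearing fibers of the stroma and are made mainly by fibroblasts, collagen IV forms the sheet under epithelium and endothelium, and the remaining types make microfilaments, anchor epithelium or coat fibrils. In mammary tumors, fibroblasts and pericytes marked by the PDGF receptors deposit much of this matrix, and lysyl oxidase crosslinks it.

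F11r, which encodes JAM-A, matched the labels. Its log2 expression was 5.91, 5.55 and 6.53 in JAM-A-/- tumors 5333, 5346 and 5347 and 10.1, 10.23 and 10.47 in JAM-A+/+ tumors 5369, 5370 and 5393, a difference of -4.27 (SE 0.24, limma adjusted p = 0.00667), and it was the only probe set of 35557 (0.00281%) that passed the Benjamini-Hochberg adjustment. Without tumor 5369, 5370, 5393 or 5333 its adjusted p was 0.0839, 0.0794, 0.0576 or 0.0507. Luminal epithelium was present in every sample, with keratin 8 (Krt8) at 12.17 to 12.89. Array medians lay between 6.23 and 6.34 and pairwise Pearson correlations over all probe sets between 0.979 and 0.991. The arrays differed in spread, with interquartile ranges from 3.27 in tumor 5369 to 3.74 in tumor 5347, and 3.61 in tumor 5346.

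Genes of the list were read by weaker criteria, a fold change of at least 1.3 (0.38 on the log2 scale) with an unadjusted limma p under 0.05. These criteria were inferred from the study's own gene signature, whose entries all meet them. Every difference below is JAM-A-/- minus JAM-A+/+ in log2 units. By these criteria 9 of the 37 measured genes were higher in JAM-A-/- tumors and 0 were lower, where 4.73% of all genes were higher and 0.592% lower, 5.33% in either direction. The 9 were Col1a2 and Col5a2 among fibrillar collagens, Col12a1, Col8a1 and Col6a3 among other collagens, and Thbs2, Fbln2, Pdgfra and Lox among fibroblast and matrix genes. None passed the adjustment over all probe sets, the smallest adjusted p being 0.256. Differences were above 0 for 33 of the 37 genes, as they were for 71.8% of all genes, and 28 exceeded the all-gene median of 0.09. The 3 JAM-A-/- tumors all lay above the 3 JAM-A+/+ tumors for 6 of 37 genes (Col1a2, Col5a3, Col12a1, Thbs2, Fbln2 and Pdgfra) and all below for 0, against 12.4% and 2.55% of all genes. With 3 tumors a group an exact two-sided permutation test of 1 gene cannot go below 0.1.

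The count depended on single tumors. It was 3 without tumor 5346, 5347 or 5369, 5 without 5393, 16 without 5370 and 12 without 5333, where 4.05%, 3.17%, 2.52%, 6.52%, 4.76% and 10.1% of all genes, in that order, were higher by the criteria. Col12a1 and Thbs2 met the criteria with every tumor left out in turn, and so did Fbln2. These 3 were the only genes of the list still higher by the criteria without tumor 5369, with 0 lower beside 0.587% of all genes. In bulk RNA, fewer cells of a type and less RNA per cell cannot be told apart.

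**Figure D1:**
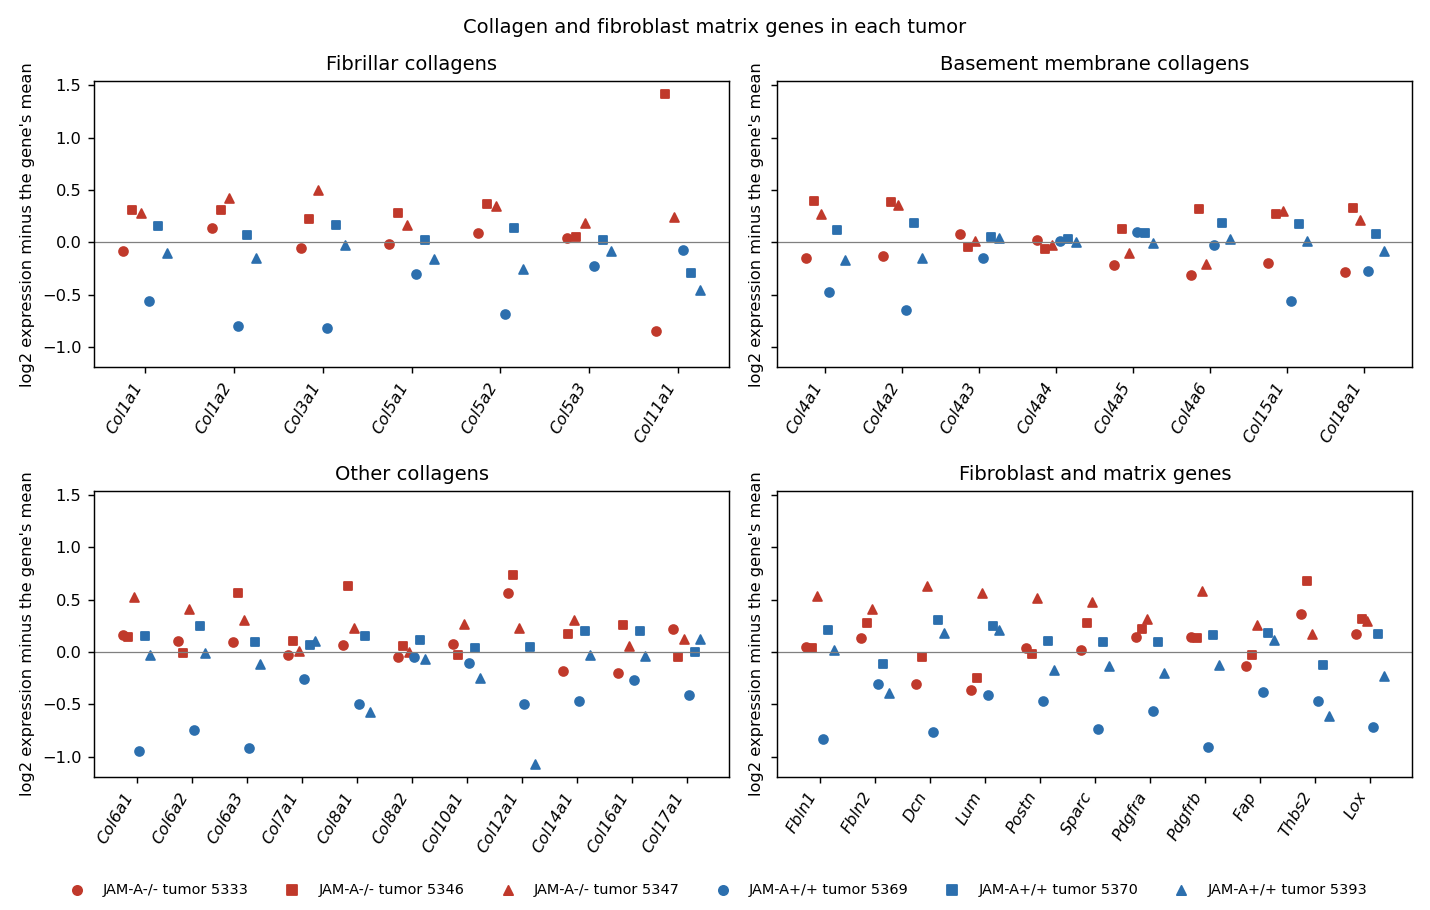
Log2 expression of each of the 37 genes minus its mean over 6 tumors (vertical axis), by class, with 1 point per tumor, JAM-A-/- in red and JAM-A+/+ in blue. Tumor 5369 (blue circles) lies lowest for 26 of the 37 genes. All red points lie above all blue points for Col1a2, Col5a3, Col12a1, Thbs2, Fbln2 and Pdgfra.

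Promoter sequences were at hand for 27 of the 37 genes (31 windows from RefSeq, GRCm38.p6, each the 250 bases before an annotated start). They are printed for Thbs2 and Fbln2, which kept the criteria with every tumor left out, and for Col1a2, the fibrillar chain that met the criteria without overlap of the groups. The capitals mark a CCAAT box (CCAAT), a GC box (GGGCGG) or a TATA box (TATAAA) on either strand, and a motif on the other strand appears as its reverse complement. Thbs2 is at chr17:14694263-14694512 on the minus strand, Fbln2 at chr6:91212514-91212763 and Col1a2 at chr6:4505368-4505617, both on the plus strand.
Thbs2: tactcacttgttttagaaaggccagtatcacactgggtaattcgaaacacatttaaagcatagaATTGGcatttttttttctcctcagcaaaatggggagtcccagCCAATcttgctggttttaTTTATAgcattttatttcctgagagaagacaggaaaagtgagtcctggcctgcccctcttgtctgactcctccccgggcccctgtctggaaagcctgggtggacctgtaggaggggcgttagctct
Fbln2: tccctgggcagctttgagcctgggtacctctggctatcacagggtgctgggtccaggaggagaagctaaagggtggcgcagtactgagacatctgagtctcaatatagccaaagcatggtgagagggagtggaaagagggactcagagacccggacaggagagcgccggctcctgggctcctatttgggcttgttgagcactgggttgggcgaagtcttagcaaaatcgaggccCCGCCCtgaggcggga
Col1a2: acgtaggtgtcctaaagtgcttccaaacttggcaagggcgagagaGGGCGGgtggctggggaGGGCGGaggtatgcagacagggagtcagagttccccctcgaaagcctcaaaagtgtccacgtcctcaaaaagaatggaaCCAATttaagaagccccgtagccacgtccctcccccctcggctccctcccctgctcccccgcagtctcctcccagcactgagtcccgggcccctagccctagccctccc
The windows differ in which motifs they hold. Thbs2 had 2 CCAAT boxes and 1 TATA box, Fbln2 had 1 GC box, and Col1a2 had 2 GC boxes and 1 CCAAT box. Over the 31 windows, 51.6% held a GC box against 32.7% of all 32851 windows, 35.5% a CCAAT box against 33.8%, 16.1% a TATA box against 12.4%, 3.23% an AP-1 site (TGANTCA) against 6.75%, and 0 the SMAD element GTCTAGAC against 0.167%. None of the 5 motifs contains another, and a match describes letters only.

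Of the 7 fibrillar collagens, 2 were higher in JAM-A-/- tumors by the criteria and 0 lower, beside 4.73% and 0.592% of all genes. The median difference of the class was 0.447, beside 0.09 for all genes. All 7 differences were above 0. Col1a2, the second chain of collagen I, the main fiber of the stroma, read 11.86, 12.03 and 12.14 in tumors 5333, 5346 and 5347 and 10.92, 11.79 and 11.57 in tumors 5369, 5370 and 5393. Each JAM-A-/- value lay above each JAM-A+/+ value, with tumor 5369 far below the rest. The difference was 0.58 (SE 0.22, adjusted p = 0.427), and without tumor 5369 it was 0.33 and no longer met the criteria.

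Col5a2, a chain of collagen V, which nucleates collagen I fibrils and limits their width, read 8.82, 9.10 and 9.08 against 8.05, 8.87 and 8.48. The groups overlapped, since tumor 5370 exceeded tumor 5333, and the difference of 0.53 (SE 0.21, adjusted p = 0.434) shrank to 0.33 without tumor 5369, where the criteria were not met. Its partner Col5a1 read 7.88, 8.18 and 8.06 against 7.59, 7.92 and 7.74, a difference of 0.29 (SE 0.14, adjusted p = 0.49). Col5a3 differed by 0.19 (SE 0.12), with groups that did not overlap.

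Col1a1, the chain that makes up most of a collagen I molecule, read 11.89, 12.28 and 12.25 against 11.41, 12.13 and 11.87. Tumor 5370 exceeded tumor 5333, and the difference of 0.34 (SE 0.20, adjusted p = 0.566) did not meet the criteria. Col3a1, whose homotrimer forms thin fibers mixed with collagen I, read 11.33, 11.60 and 11.88 against 10.56, 11.55 and 11.36, a difference of 0.45 (SE 0.27, adjusted p = 0.56) that fell to 0.15 without tumor 5369. Col11a1, a minor fibrillar chain of cartilage that tumor fibroblasts can also make, had the widest spread of the 37 genes. It read 8.40, 10.66 and 9.49 against 9.17, 8.95 and 8.79, so the lowest and the highest tumors were both JAM-A-/-, and its difference was 0.55 (SE 0.49, adjusted p = 0.697) with all tumors and -0.03 without tumor 5346.

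**Figure D2:**
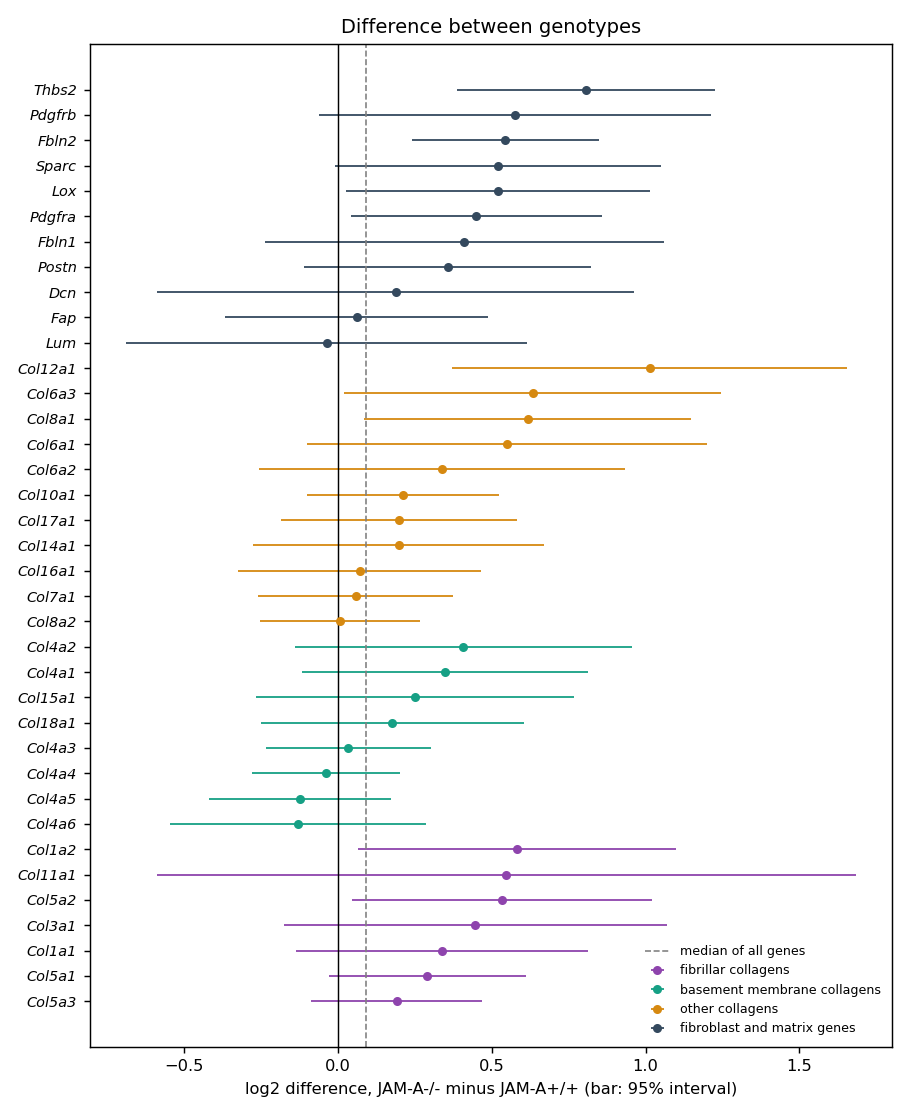
Difference in log2 expression between JAM-A-/- and JAM-A+/+ tumors (horizontal axis) for the 37 genes, colored by class, with 95% intervals from limma and a dashed line at the all-gene median of 0.09. Intervals of 9 genes lie above 0, from Col12a1 at 1.01 to Pdgfra at 0.45, and those of the 8 basement membrane collagens all include 0.

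Among the 8 basement membrane collagens, 0 met the criteria in either direction, beside 5.33% of all genes. Of the 8, 0 had an unadjusted limma p under 0.05. Their median difference was 0.105, and whether it differed from that of the fibrillar collagens was not tested. The collagen IV chains are given as pairs of neighboring genes. Col4a1 and Col4a2, which assemble together into the collagen IV of most basement membranes and start 21 bases apart on opposite strands of chromosome 8 (GRCm38.p6), both had differences above 0. Col4a1 read 8.27, 8.82 and 8.69 against 7.95, 8.54 and 8.25, a difference of 0.35 (SE 0.20, adjusted p = 0.549). Col4a2 read 8.27, 8.79 and 8.76 against 7.76, 8.59 and 8.25, a difference of 0.41 (SE 0.24, adjusted p = 0.55). In both, tumor 5369 was lowest and tumor 5346 highest, and tumor 5370 exceeded tumor 5333.

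The pair Col4a5 and Col4a6, on the X chromosome with starts 1343 bases apart on opposite strands, encodes collagen IV chains of skin, smooth muscle and breast duct basement membrane. Col4a5 read 8.12, 8.46 and 8.23 against 8.43, 8.42 and 8.33, and its difference was -0.12 (SE 0.13, 95% interval -0.42 to 0.17). Col4a6 read 7.68, 8.31 and 7.79 against 7.97, 8.18 and 8.02, with a difference of -0.13 (SE 0.18, 95% interval -0.55 to 0.29) that was 0.04 with array weights. In neither chain was tumor 5369 the lowest: tumor 5333 was. Col4a3 and Col4a4, known best from kidney and lung, varied least of the class. Their means lay above only 44.6% and 49.6% of all probe sets. No detection limit was set, so a flat reading may be a lack of signal. Col4a3 read 6.01, 5.88 and 5.94 against 5.78, 5.98 and 5.97, and Col4a4 read 6.27, 6.18 and 6.22 against 6.26, 6.28 and 6.25, with differences of 0.03 and -0.04 whose signs turned with array weights for Col4a3 and, for Col4a4, after median centring and when all probe sets were quantile normalized.

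Col15a1 and Col18a1, the proteoglycan collagens of vascular and epithelial basement membranes whose C-terminal fragments restrain vessel growth, had differences of 0.25 (SE 0.22) and 0.18 (SE 0.18). Col15a1 read 7.45, 7.92 and 7.95 against 7.09, 7.82 and 7.66, and without tumor 5369 its difference was 0.03. Col18a1 was lowest in tumor 5333 at 7.09, next to tumor 5369 at 7.10. Without tumor 5369 the median of the class was 0.000833, beside 0.0667 for all genes.

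Other collagens had 3 of 11 chains higher by the criteria and 0 lower, beside 4.73% and 0.592% of all genes. The median difference of the class was 0.21, beside 0.09 for all genes. Col12a1, which encodes a fibril-associated collagen of tendon, dense stroma and tissue under load, had the highest difference of the 37 genes. It read 10.22, 10.39 and 9.89 in tumors 5333, 5346 and 5347 and 9.16, 9.71 and 8.59 in tumors 5369, 5370 and 5393, so the groups did not overlap, and the lowest value was in tumor 5393, not 5369. The highest was in tumor 5346, the same pair of extremes that all 10 skeletal muscle markers had. The difference was 1.01 (SE 0.28, 95% interval 0.37 to 1.66, adjusted p = 0.323), a fold of 2.02, and it was 1.02 without tumor 5369. It ranged from 0.73 to 1.29 over the 15 alternative settings, meeting the criteria in each, with adjusted p between 0.15 and 0.651.

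Col8a1, a short-chain collagen of vessel walls that smooth muscle cells make, read 8.63, 9.19 and 8.79 against 8.06, 8.71 and 7.99. Tumor 5370 lay between tumors 5333 and 5347, and the difference of 0.62 (SE 0.23, adjusted p = 0.419) remained at 0.52 without tumor 5369, with the criteria not met. Col8a2, the second chain of that collagen, read 7.35, 7.46 and 7.40 against 7.35, 7.51 and 7.33, a difference of 0.01 (SE 0.11, 95% interval -0.25 to 0.27) that was -0.02 with quantile normalization of all probe sets and -0.09 over the listed ones.

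Collagen VI, the beaded filament that surrounds cells and fat, was measured through its 3 main chains. Col6a3 read 9.26, 9.73 and 9.47 against 8.25, 9.26 and 9.05, with a tie between tumors 5333 and 5370, and met the criteria with a difference of 0.63 (SE 0.26, adjusted p = 0.449). Col6a1 read 9.46, 9.44 and 9.83 against 8.36, 9.45 and 9.27, a difference of 0.55 (SE 0.28, adjusted p = 0.508), and Col6a2 differed by 0.34 (SE 0.26, adjusted p = 0.638). For all 3 chains tumor 5369 was the lowest by a wide margin, and without it the differences were 0.33 for Col6a3, 0.22 for Col6a1 and 0.05 for Col6a2, none meeting the criteria.

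The remaining 5 chains of this class had differences from 0.06 to 0.21 and none met the criteria. They were Col10a1, the collagen of growth plate cartilage, at 0.21 (SE 0.13), Col14a1, a fibril-associated collagen of stroma, at 0.20 (SE 0.20), and Col17a1, the transmembrane collagen of hemidesmosomes, at 0.20 (SE 0.17). The mean of Col10a1 lay above only 32.2% of all probe sets. Col16a1, another fibril-associated chain, was at 0.07 (SE 0.17) and Col7a1, the anchoring fibril under epithelium, at 0.06 (SE 0.14). The sign for Col16a1 turned in both quantile settings and that for Col7a1 when only listed probe sets were quantile normalized. Counting Col7a1 and Col17a1 with the basement membrane collagens, to which they bind, gave medians of 0.117 for that class and 0.337 for the other collagens.

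Fibroblast and matrix genes had 4 of 11 measured genes higher by the criteria and 0 lower, beside 4.73% and 0.592% of all genes. The median difference of the class was 0.45, beside 0.09 for all genes. Thbs2 encodes thrombospondin 2, a matricellular protein that affects fibril assembly and restrains angiogenesis. It read 9.68, 9.99 and 9.49 in tumors 5333, 5346 and 5347 and 8.85, 9.19 and 8.70 in tumors 5369, 5370 and 5393. Every JAM-A-/- tumor exceeded every JAM-A+/+ tumor, and, as with the skeletal muscle markers, tumor 5346 was the highest and tumor 5393 the lowest. The difference was 0.81 (SE 0.18, 95% interval 0.39 to 1.23, adjusted p = 0.256), a fold of 1.75, with 0.78 left without tumor 5369. Over the 15 alternatives it lay between 0.64 and 0.95 and met the criteria in each, with adjusted p from 0.0984 to 0.61.

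Fbln2, which encodes fibulin 2, a glycoprotein of basement membranes and elastic fibers, read 9.37, 9.51 and 9.64 against 8.93, 9.12 and 8.84. The groups did not overlap and the difference was 0.54 (SE 0.13, 95% interval 0.24 to 0.85, adjusted p = 0.275). Without tumor 5369 it was 0.53. It met the criteria in 13 of 15 alternatives, the exceptions being the quantile setting restricted to listed probe sets, where it was 0.38 and just under the fold, and a fold of at least 1.5. Its adjusted p ranged from 0.116 to 0.608. Fbln1, the related fibulin, read 8.33, 8.32 and 8.82 against 7.45, 8.49 and 8.30, a difference of 0.41 (SE 0.28, adjusted p = 0.602) that fell to 0.10 without tumor 5369.

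The PDGF receptors mark stromal cells, Pdgfra mainly fibroblasts and Pdgfrb mainly pericytes. Pdgfra read 8.86, 8.94 and 9.03 against 8.15, 8.81 and 8.52, groups that did not overlap although tumors 5333 and 5370 were close, and met the criteria at 0.45 (SE 0.18, adjusted p = 0.432). Pdgfrb read 8.63, 8.62 and 9.07 against 7.58, 8.65 and 8.36, a difference of 0.58 (SE 0.27, adjusted p = 0.49) outside the criteria. Both were lowest in tumor 5369, and without it the differences were 0.28 and 0.27, with neither meeting the criteria.

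Lox, the enzyme that crosslinks collagen and elastin, read 8.24, 8.39 and 8.37 against 7.36, 8.24 and 7.84. Tumors 5333 and 5370 tied, and the difference of 0.52 (SE 0.21, adjusted p = 0.444) met the criteria with all tumors but was 0.29 without tumor 5369. Sparc, a collagen-binding protein secreted with collagen I, read 11.52, 11.78 and 11.98 against 10.76, 11.59 and 11.37 and missed the p of the criteria at 0.52 (SE 0.23, adjusted p = 0.461). Postn, which encodes periostin, a matricellular protein of activated stroma, read 11.47, 11.41 and 11.95 against 10.96, 11.54 and 11.26, a difference of 0.36 (SE 0.20, adjusted p = 0.539).

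The remaining fibroblast genes, Dcn, Lum and Fap, did not meet the criteria. The small leucine-rich proteoglycan Dcn (decorin) read 9.91, 10.17 and 10.85 against 9.45, 10.52 and 10.40, and its relative Lum (lumican) read 8.07, 8.19 and 9.0 against 8.03, 8.69 and 8.65. In both, JAM-A-/- tumors 5333 and 5346 lay below JAM-A+/+ tumors 5370 and 5393, and tumor 5347 was the highest. The differences were 0.19 (SE 0.33, 95% interval -0.59 to 0.96) for Dcn and -0.04 (SE 0.28, 95% interval -0.69 to 0.62) for Lum, and without tumor 5369 they were -0.15 and -0.25. Dcn was also below 0 with array weights and both quantile settings, and Lum above 0 with median centring. Fap, the protease of activated fibroblasts, read 6.05, 6.15 and 6.44 against 5.80, 6.36 and 6.30, a difference of 0.06 (SE 0.18) that turned below 0 with array weights. Its mean lay above only 48.7% of all probe sets.

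Control tumor 5369 carried much of the size of these differences, but the calls did not rest on it alone. Col1a2, Col5a2, Col6a3, Col8a1, Pdgfra and Lox each failed the criteria without tumor 5369, and likewise without 5346 or without 5347. Tumor 5369 had the lowest value of 6 for 26 of the 37 genes, against 36.2% of all genes, namely for 6 of 7 fibrillar, 4 of 8 basement membrane and 7 of 11 other collagens and for 9 of 11 fibroblast and matrix genes. The highest value was in tumor 5347 for 17 genes and in tumor 5346 for 15, where these tumors were highest for 42.2% and 16.2% of all genes. Shares of all genes were not matched for expression level, and the part played by the spread of each array was not tested. Tumor 5347 held the highest value for 9 of the 11 fibroblast and matrix genes and tumor 5346 for 5 of the 8 basement membrane collagens. Over all 37 genes the mean deviation from each gene's own mean was -0.02, 0.24 and 0.28 in tumors 5333, 5346 and 5347 and -0.47, 0.10 and -0.13 in tumors 5369, 5370 and 5393. JAM-A+/+ tumor 5370 thus stood above JAM-A-/- tumor 5333. For all genes the mean deviations, in the same order of tumors, were -0.03, 0.05 and 0.13 and -0.11, -0.04 and -0.01. Tumor 5369 was the lowest there too.

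Without tumor 5369 the median difference was 0.21 for fibrillar collagens, 0.0467 for other collagens and 0.268 for fibroblast and matrix genes, and 27 of 37 differences were above 0, as were 67.3% of all genes. The median over the 37 genes went from 0.337 to 0.148, and that over all genes from 0.09 to 0.0667. The median range among the 3 JAM-A+/+ tumors was 0.66 for the 37 genes and 0.26 for all genes, and among the 3 JAM-A-/- tumors 0.45 and 0.31.

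**Figure D3:**
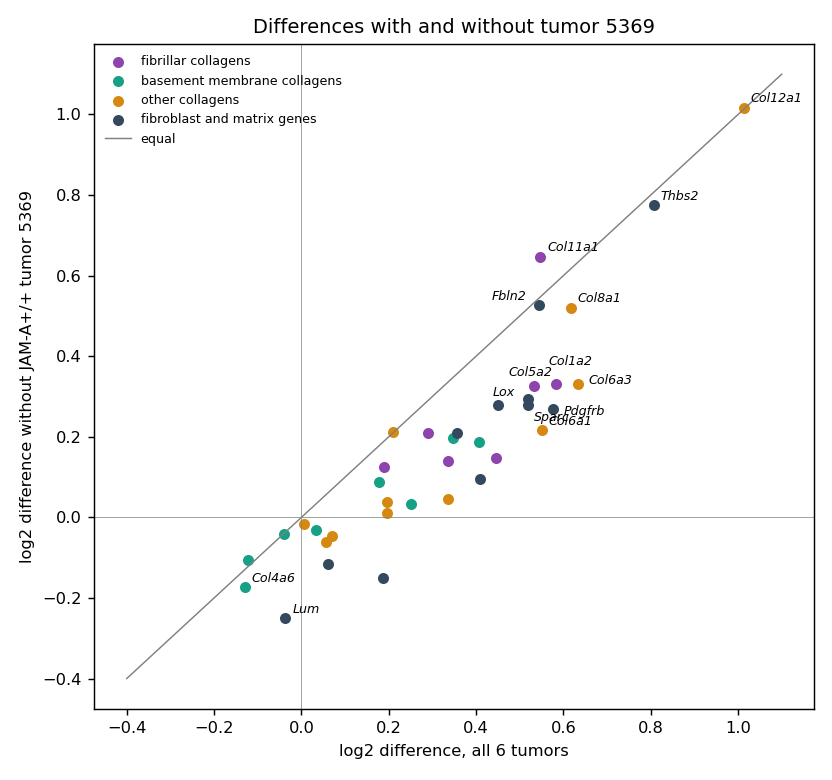
Log2 difference of each of the 37 genes with all 6 tumors (horizontal axis) and without JAM-A+/+ tumor 5369 (vertical axis), colored by class, with a line of equality. Col12a1, Thbs2, Fbln2 and Col11a1 lie at or near the line, from 0.53 for Fbln2 to 1.02 for Col12a1 without that tumor, while Col1a2, Col5a2, Col6a3, Lox and Sparc lie below it at 0.28 to 0.33.

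Some chains that share a molecule kept their distance from tumor to tumor more closely than others. Col4a1 and Col4a2 ranged over 0.87 and 1.03 across the 6 tumors, but their difference from each other ranged over 0.26. For Col6a1 and Col6a2 these ranges were 1.47, 1.16 and 0.34, and for Col1a1 and Col1a2 they were 0.87, 1.22 and 0.46. Col4a5 and Col4a6 ranged over 0.34 and 0.63 and their difference over 0.31. Col6a3 stayed less close to Col6a1, with ranges of 1.48 and 1.47 and 0.65 for the difference. For Col5a1 and Col5a2 the difference ranged over 0.56, nearly as far as Col5a1 itself at 0.59, beside 1.05 for Col5a2. Col4a3 and Col4a4 ranged over 0.23 and 0.10 and their difference over 0.22. Col8a1 and Col8a2 did not keep their distance: they ranged over 1.20 and 0.18 and their difference over 1.07, because Col8a1 varied and Col8a2 hardly did.

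Each gene was then set against the mean of Col1a1, Col1a2 and Col3a1 in the same tumor, a measure chosen after the data were seen and given as a description. That mean was 11.69, 11.97 and 12.09 in tumors 5333, 5346 and 5347 and 10.96, 11.82 and 11.60 in tumors 5369, 5370 and 5393. Of the other 34 genes, 21 ranged less across the tumors relative to this mean than on their own and 13 ranged more. Sparc went from a range of 1.22 to 0.12, Pdgfrb from 1.49 to 0.36, Col6a1 from 1.47 to 0.37, Col5a2 from 1.05 to 0.25, Lox from 1.03 to 0.31 and the basement membrane chain Col4a2 from 1.03 to 0.24. These genes thus followed collagens I and III closely across the 6 tumors of both genotypes.

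Col12a1 and Thbs2 followed less, with ranges of 1.80 and 1.29 alone and 1.54 and 0.92 relative to the mean, and Fbln2 hardly at all, from 0.80 to 0.73. Relative to collagens I and III their groups overlapped, with mean differences of 0.56 for Col12a1, 0.35 for Thbs2 and 0.09 for Fbln2, in each case with tumor 5369 among the 3 highest. The mean of collagens I and III was itself higher on average in JAM-A-/- tumors. A gene without a difference of its own therefore fell below 0 on that scale. The mean differences of Lum and Dcn were -0.49 and -0.27 there. Those of Col4a6, Col4a5 and Col4a4 were -0.59, -0.58 and -0.50. Col4a5 and Col4a6, which did not vary with collagen I, ranged over 1.33 and 1.31.

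**Figure D4:**
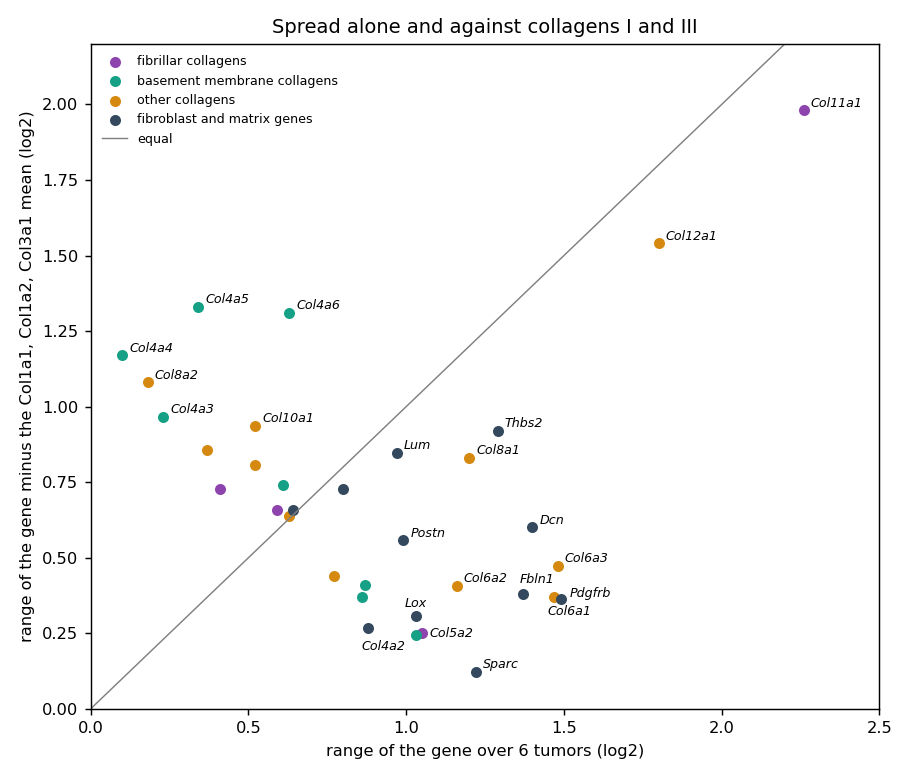
Range over 6 tumors of each gene's log2 expression (horizontal axis) and of the same value minus the mean of Col1a1, Col1a2 and Col3a1 in the tumor (vertical axis), for 34 genes colored by class, with a line of equality. Points below the line, such as Sparc at 1.22 and 0.12, are the 21 genes that vary less relative to collagens I and III, and Col4a5 and Col4a6 lie above it at 1.33 and 1.31.

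Genes that act on collagen were taken from lists outside the 38. Of 27 measured genes of collagen synthesis and crosslinking, 8 were higher by the criteria and 0 lower, with a median difference of 0.343 and 25 of 27 above 0. P3h4, named as a member of the prolyl 3-hydroxylase family, read 8.47, 8.69 and 8.66 against 7.87, 7.97 and 7.91. All JAM-A-/- tumors lay above all JAM-A+/+ tumors, which differed little among themselves, and the difference was 0.69 (SE 0.12, adjusted p = 0.208), with 0.67 left without tumor 5369. Plod1, a lysyl hydroxylase, differed by 0.87 (SE 0.24, adjusted p = 0.331), Loxl3, a lysyl oxidase relative, by 1.14 (SE 0.32, adjusted p = 0.336), and P4hb, a subunit of prolyl 4-hydroxylase and a general disulfide isomerase, by 0.47 (SE 0.15, adjusted p = 0.38), each with groups that did not overlap. The other 4 were P4ha1, Serpinh1, Bmp1 and Pcolce. The count of 8, beside 4.73% of all genes, became 14 without tumor 5333, 3 without 5346, 4 without 5369 and 5 without 5393. In that order, 10.1%, 4.05%, 2.52% and 6.52% of all genes were higher.

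Of 25 other matrix glycoproteins and proteoglycans, 6 were higher by the criteria and 0 lower, with a median of 0.33. Sparcl1, an antiadhesive relative of Sparc, differed by 0.83 (SE 0.23, adjusted p = 0.33), the elastic fiber protein Fbln5 by 0.71 (SE 0.22, adjusted p = 0.362), tenascin C (Tnc) by 0.90 (SE 0.29, adjusted p = 0.386) and matrilin 2 (Matn2) by 0.61 (SE 0.21, adjusted p = 0.393). The other 2 were Tgfbi and Bgn. The count of 6, beside 4.73% of all genes, was 10 without tumor 5333, 2 without 5346 or 5369 and 11 without 5370. In that order, 10.1%, 4.05%, 2.52% and 4.76% of all genes were higher.

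The partners of collagen IV in basement membranes, laminins, nidogens and proteoglycans, had 1 of 13 genes higher by the criteria, 0 lower, and a median of 0.21. That gene was Nid2, which encodes nidogen 2, a linker between laminin and collagen IV. It read 7.34, 7.11 and 6.93 against 6.44, 6.58 and 6.52, with no overlap, a difference of 0.61 (SE 0.14, adjusted p = 0.256). The count of 1, beside 4.73% of all genes, was 4 without tumor 5370 and 2 without 5333. In that order, 4.76% and 10.1% of all genes were higher. In TGF-beta and PDGF signalling, 2 of 20 genes were higher and 0 lower, with a median of 0.12. They were Ccn2, the connective tissue growth factor, at 0.79 (SE 0.22, adjusted p = 0.324), and the ligand Pdgfb at 0.41 (SE 0.15, adjusted p = 0.413), while none of the TGF-beta ligands or receptors on the list met the criteria. That count of 2, beside 4.73% of all genes, was 1 without tumor 5346 or 5369. In that order, 4.05% and 2.52% of all genes were higher.

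Collagen receptors had 0 of 9 genes meeting the criteria in either direction, and 0 with an unadjusted limma p under 0.05. The smallest p was that of Mrc2, an endocytic receptor that takes up collagen, at 0.33 (adjusted p = 0.508). Among 18 collagen chains outside the 38 genes, 1 was higher by the criteria, the cartilage chain Col9a2 at 0.76 (SE 0.27, adjusted p = 0.41), 0 were lower, and the median was 0.0333. The count of 1, beside 4.73% of all genes, was 0 without tumor 5346, 5347 or 5369 and 3 without 5333. In that order, 4.05%, 3.17%, 2.52% and 10.1% of all genes were higher.

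Markers of stromal cells other than the 38 genes moved with several of these values. For 12 other fibroblast markers the mean level was 7.41 to 7.77 in JAM-A-/- and 6.96 to 7.62 in JAM-A+/+ tumors, 0 met the criteria, and tumor 5369 was lowest for 11. Dpt (dermatopontin) was lowest in tumor 5369 at 7.32 and highest in tumor 5370 at 8.95, both JAM-A+/+. All 9 adipocyte markers were lowest in tumor 5369, with list means of 6.25 to 7.19 in JAM-A-/- and 5.70 to 7.29 in JAM-A+/+ tumors and 0 meeting the criteria. Endothelial markers were lowest there for 11 of 12 genes, with means of 6.98 to 7.39 and 6.59 to 7.09 and 3 higher by the criteria (Eng, Flt1 and Pecam1), where 4.73% of all genes were. Without tumor 5369 the endothelial count was 1, beside 2.52% of all genes. It was also 1 without tumor 5346, 5347 or 5393, and it was 6 without 5370 and 7 without 5333. In that order, 4.05%, 3.17%, 6.52%, 4.76% and 10.1% of all genes were higher.

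Pericyte and smooth muscle markers had means of 7.50 to 7.85 in JAM-A-/- and 7.15 to 7.32 in JAM-A+/+ tumors, without overlap, and 5 of 11 were higher by the criteria. With all tumors 4.73% of all genes were higher. The count was 3 without tumor 5369, and also without 5346 or 5393, beside 2.52%, 4.05% and 6.52% of all genes. Tumor 5369 was lowest for 6 of the 11. Acta2, the smooth muscle actin also made by activated fibroblasts and myoepithelium, read 9.61, 9.93 and 9.61 against 8.66, 8.84 and 8.96, a difference of 0.90 (SE 0.14, adjusted p = 0.208). The other 4 were Des, Tagln, Cnn1 and Abcc9. The groups overlapped for Rgs5, Cspg4, Mcam, Notch3 and Myh11, with differences from 0.03 (Notch3) to 0.31 (Mcam). They did not overlap for Kcnj8, whose difference of 0.32 was under the fold. Macrophage and luminal epithelial markers had 0 of 10 meeting the criteria each, with means of 8.45 to 9.05 and 8.33 to 8.99 for the first and 10.63 to 11.09 and 10.56 to 10.92 for the second. Tumor 5369 was lowest for 8 of the 10 macrophage and 7 of the 10 luminal markers. Basal epithelial markers had 1 of 8 (Cdh3), beside 4.73% of all genes, with means of 7.79 to 7.98 and 7.58 to 8.03. Tumor 5369 was lowest for 4 of them. The basal count was 0 without tumor 5333, 5346 or 5369, beside 10.1%, 4.05% and 2.52% of all genes.

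Skeletal muscle markers had 1 of 10 (Acta1), with means of 7.17 to 8.07 in JAM-A-/- and 6.33 to 7.66 in JAM-A+/+ tumors. All 10 had a difference above 0, with a median of 0.653, and all 10 were highest in tumor 5346 and lowest in tumor 5393, as were Col12a1, Thbs2 and Col8a1 among the 37 genes and 452 of all genes. Tumor 5369 was lowest for 0 of the 10. The count of 1, beside 4.73% of all genes, was 9 without tumor 5370, 6 without 5333 and 0 without any 1 of the other 4 tumors. Without 5370 the share of all genes was 4.76%, and without 5333 it was 10.1%. The part of any of these cell types in the differences of the matrix genes was not tested.

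**Figure D5:**
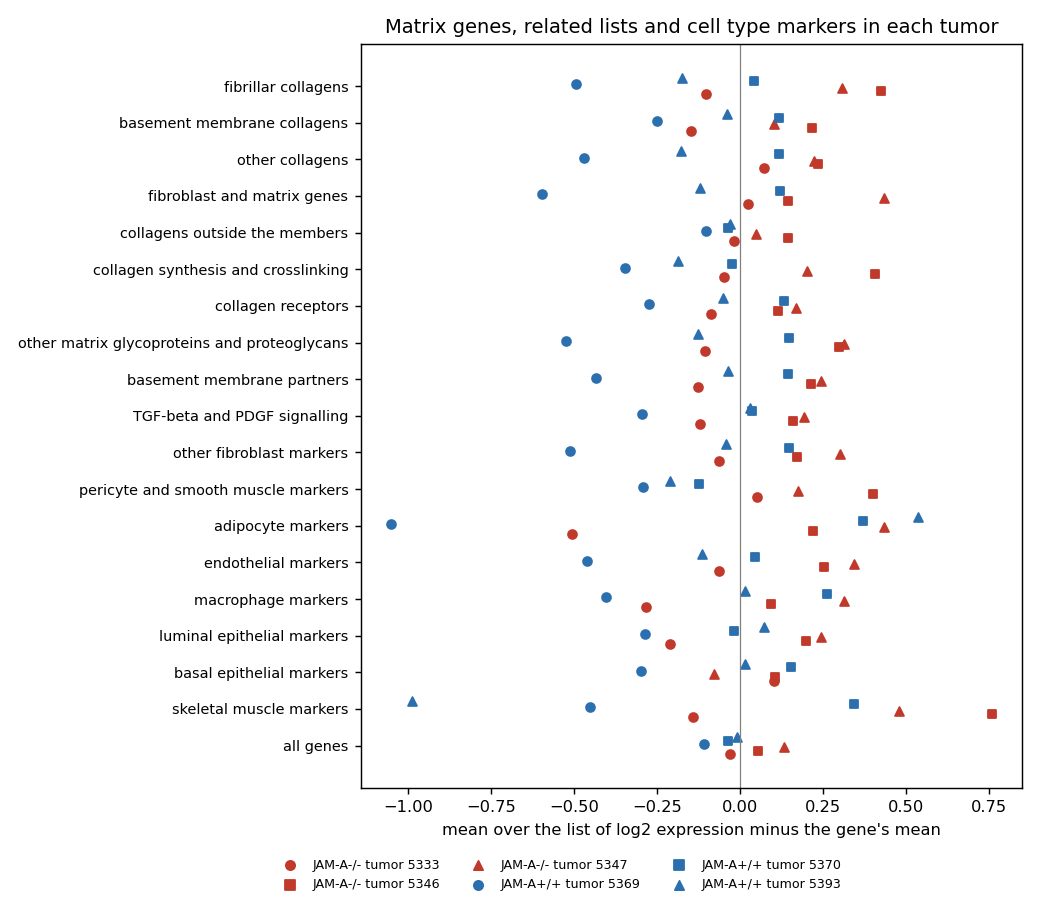
Mean over each list of log2 expression minus the gene's own mean (horizontal axis), 1 point per tumor, JAM-A-/- in red and JAM-A+/+ in blue, for the 4 classes of matrix genes, related lists, cell type markers and all genes. Tumor 5369 lies leftmost in each of the 4 classes, at -0.50, -0.25, -0.47 and -0.60, and also for all genes, at -0.11. It lies leftmost in every other list but the skeletal muscle markers. The list means of pericyte and smooth muscle markers and, by a narrow margin, of the collagens outside the 38 genes separate the genotypes.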

How the data were processed

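RNA of 6 tumors was hybridized to Affymetrix Mouse Gene 1.0 ST arrays. The authors deposited RMA output on the log2 scale, from Affymetrix Expression Console 1.1 per the submitters' processing notes, with 2 decimals. RMA gives all arrays 1 distribution of probe intensities, so values hold no measure of total RNA. Settings of RMA were not given in the sources used here, and an array has no read depth, and the number of arrays limits precision. Platform annotation paired 21789 probe sets with 1 symbol, 1621 with several and did not list 12147. Of the first, 21698 were matched to RefSeq genes (GRCm38.p6).

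Limma 3.58.1 in R 4.3.3 (lmFit, eBayes) was fitted to all 35557 probe sets, 3 against 3 tumors by the title and genotype labels, without covariate or filter, with Benjamini-Hochberg adjustment over all of them. A fold of at least 1.3 with an unadjusted p under 0.05 was the criterion. The study's text states no threshold, and this one was inferred as a fold and p that all entries of its gene signature meet. The steps were tested on simulated data. The genes, lists and rules were chosen with earlier results of these data known. The rule named every gene of the list, gave per-tumor values for genes meeting the criteria, the 2 of each class with the smallest p, and collagens I, III and IV, and took up to 4 genes meeting the criteria, or else 1, from each related list. Per-tumor values of the others, the further genes of related lists and those named from marker lists, go beyond that rule and were chosen after their values were seen. Adamts2, Fkbp10, Loxl2, Gp6, Efemp2 and Cfd, on the related and marker lists, were not analysed here. Alternatives covered variance moderation, scaling, filters, thresholds and leaving out each tumor. Their use on the related and marker lists and on the all-gene median was added after seeing the data.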

Additional observations from a re-analysis of the deposited data

How the results depend on the processing

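By the criteria, the count of the 37 genes higher in JAM-A-/- tumors was 9. It was 3 with each probe set's own variance, 4 with quantile normalization of all probe sets and 4 at a fold of at least 1.5, where 2.46%, 2.86% and 1.22% of all genes were higher, and 3 to 16 with 1 tumor left out. With 1 tumor left out the share of all genes was 2.52% to 10.1%. With the other settings the count lay between 6 and 11, where 1.8% to 8.13% of all genes were higher. In all 15 alternatives 0 of the 37 genes were lower, where 25 to 303 of all genes were. Class medians stayed within 1 SD of the spread between tumors in every alternative. That bound was too loose to show stability, since the spread included tumor 5369 and the basement membrane median could fall from 0.105 to 0.000833 within it. With 1 tumor left out the class medians ranged from 0.21 to 0.583 for fibrillar, 0.000833 to 0.18 for basement membrane and 0.0467 to 0.347 for other collagens and 0.268 to 0.615 for fibroblast and matrix genes. Of all genes meeting the criteria, 88.9% were higher, 76.6% after quantile normalization of all probe sets and 54.2% after that over the listed ones, where the medians were 0.256, 0.0342, 0.191 and 0.306 for the 4 classes and 0.00222 for all genes. Collagen synthesis genes higher by the criteria numbered 8, or 3 with own variance, 13 with array weights and 5 in either quantile setting, beside 2.46%, 6.57%, 2.86% and 1.8% of all genes. Other matrix genes numbered 6, or 1 with own variance, and pericyte and smooth muscle markers 5, or 3. Endothelial markers numbered 3, or 2 with own variance and 6 with array weights. F11r kept its difference, with adjusted p = 0.453 under own variance.

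Signs turned for genes that did not meet the criteria. With array weights the log2 differences were -0.032 for Col4a3, 0.041 for Col4a6, -0.040 for Dcn and -0.0548 for Fap. With quantile normalization of all probe sets they were -0.0683 for Col16a1, 0.022 for Col4a4, -0.023 for Col8a2 and -0.025 for Dcn, and over the listed probe sets -0.086 for Col16a1, -0.038 for Col7a1, -0.089 for Col8a2 and -0.030 for Dcn. Median centring gave 0.017 for Col4a4 and 0.020 for Lum. With 1 tumor left out, differences ranged from -0.025 to 1.105 for Col11a1, -0.045 to 0.19 for Col16a1, -0.032 to 0.068 for Col4a3, -0.060 to 0.12 for Col7a1, -0.0267 to 0.063 for Col8a2, -0.15 to 0.39 for Dcn, -0.12 to 0.16 for Fap and -0.33 to 0.14 for Lum. The causes were not tested. No paired analysis was possible because the tumor numbers of the labels are not shared between the groups.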
